A study of Mus musculus with 8 samples.

Results

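The 33 genes described here encode the subunits of the glutamate receptors, the auxiliary proteins that travel with them, and Slc17a7, the vesicular transporter that loads glutamate into synaptic vesicles. They comprise 4 AMPA receptor subunits, 6 NMDA receptor subunits, 5 kainate receptor subunits, the delta receptor Grid1, 6 metabotropic receptors, 4 transmembrane AMPA receptor regulatory proteins (TARPs), the 2 cornichons Cnih2 and Cnih3, Shisa9, Gsg1l, Neto1, Neto2 and Slc17a7. They were chosen by name from these gene families and are 33 of the 40659 genes in the count table. All 33 passed the filter on low counts and were tested among 17252 genes.

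The study overexpressed miR-708-5p in the hippocampus of male C57BL/6JRj wild-type mice and asked which transcripts changed. A recombinant adeno-associated virus (rAAV) was injected into the dorsal and ventral hippocampus at postnatal week 7 to 8, with the miR-708-5p hairpin in the 3'UTR of EGFP behind the human synapsin promoter (hp708) or with a control hairpin (hpCTL). Whole hippocampi were taken 4 weeks later, and the sample labels give postnatal week 12 to 13. PolyA RNA was sequenced from 4 hpCTL and 4 hp708 animals, 1 library per animal. The synapsin promoter directs expression to neurons, and each library holds RNA from every cell of the hippocampus.

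Glutamate released from vesicles opens AMPA receptors, which carry most of the fast excitatory current, and NMDA receptors, which admit calcium when the membrane is depolarised and start synaptic plasticity. Kainate receptors act on both sides of the synapse, and metabotropic receptors signal through G proteins. Auxiliary subunits decide how many AMPA and kainate receptors reach the synapse and how fast their channels close, and in pyramidal cells of the hippocampus the TARP Cacng8 and the cornichon Cnih2 are prominent among them.

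A miRNA recognises its targets mainly by pairing of its seed, here bases 2 to 8, with the 3'UTR. The mature miRNA is shown with the seed in capitals, as RefSeq gives it (GRCm38.p6, chr7:96249450-96249472, plus strand), because it defines the letters searched in the receptor transcripts.
mmu-miR-708-5p: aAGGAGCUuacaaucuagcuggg

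Matches of 3 kinds were searched on the transcribed strand of annotated 3'UTRs, the 8mer AGCTCCTA, the 7mer-m8 AGCTCCT without the final A, and the 7mer-A1 GCTCCTA not preceded by A. The examples below were taken from the 3'UTR of the canonical transcript. They are the 8mers found there, in Gria2 and Cacng2, the match in Gria4 with the most paired bases, both 7mer-m8 matches of Grin2b, and the Grin2a match with the most paired bases. Capitals mark the match, and the rest is the stretch opposite the miRNA.
Gria2: ttatagatgcttgccAGCTCCTA
Cacng2: cgcctctctgtggagAGCTCCTA
Gria4: aactactagactgtcAGCTCCTt
Grin2b: cctgcctcttgccatAGCTCCTg
Grin2b: accaatgctggctagAGCTCCTt
Grin2a: tttggtttttctttaAGCTCCTt

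On GRCm39 and the minus strand these lie, in that order, at chr3:80592444-80592466, chr15:77876343-77876365, chr9:4417997-4418019, chr6:135695371-135695393, chr6:135691483-135691505 and chr16:9390424-9390446. Aligned without gaps, the Gria4 stretch pairs with 17 of the 23 bases of the miRNA, the Cacng2 and Grin2a stretches with 13, and the Gria2 and both Grin2b stretches with 11. In the longest annotated 3'UTR, 12 of the 33 genes (36.4%) held a match of any kind, against 3927 of the 14807 tested genes with a 3'UTR (26.5%). The 3'UTRs of the 33 genes were longer, with a median of 2517 bases against 1865. With 8mers alone the shares were 6.06% and 3.48%. A match of letters is a description and does not show that the miRNA binds there.

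Sequencing gave between 22606824 and 28462428 counted reads per library. The library labelled hp708 replicate 1 has conflicting labels, since its title places the animal in the hp708 group, whereas the source data of the qPCR experiments list the same animal under hpCTL. It was kept in the hp708 group, and the fits are given with and without it. The precursor gene Mir708 had 0 counts in every library, so the overexpression could not be checked from the counts of this gene. Markers of the dentate gyrus (Prox1, 55.5 to 121 CPM), of CA1 (Wfs1, 88.7 to 139 CPM) and of CA3 (Bok, 41.2 to 86.1 CPM) were present in each library, where CPM are counts per 1000000 reads of the normalised library. Of the 16 marker lists examined, 3 had only negative log2 fold changes in hp708, those of the subiculum, the interferon response and microglia. All 8 subiculum markers had a negative log2 fold change, none was at 0, and the mean log2 CPM of hpCTL replicates 1 to 4 was 3.51, 4.14, 3.95 and 3.98. For hp708 replicates 1 to 4 it was 3.99, 2.82, 3.03 and 2.54, so that replicate 1 sat with the controls. At an unadjusted p below 0.05 were 4 of the 8, and 1 without surrogate variables, against 7.7% and 1.81% of all tested genes. Without hp708 replicate 1 these counts were 7 and 5, against 12.2% and 3.42% of all tested genes. The summed level of the subiculum markers was 185 to 275 CPM in hpCTL and 161 to 252 CPM in hp708. The mean of the CA3 list differed by 0.19, with 7 of its 8 markers positive, 4 at an unadjusted p below 0.05 with surrogate variables and none without, and by 0.25 without hp708 replicate 1. The groups overlapped in this mean, at 5.18 to 5.47 in hpCTL and 5.28 to 5.71 in hp708, with the highest value in hp708 replicate 2. The choroid plexus list ranged over libraries of both groups, from 52.7 to 4396 CPM in sum. Of the interferon response markers all 9 had negative estimates and an unadjusted p below 0.05 with 3 surrogate variables, and none that p without them, with a mean difference of -0.27 and sums from 169 to 476 CPM that overlapped between the groups. Without hp708 replicate 1 the mean difference was -0.02, and 3 of the 9 had such a p with surrogate variables. Of the microglia markers 6 of 6 had negative estimates, 4 of them at an unadjusted p below 0.05 with surrogate variables and none without, with a mean difference of -0.10 (0.01 without hp708 replicate 1, when none of the 6 had such a p in either fit). The part of either list in the receptor values was not tested. The 12 lists other than those of the subiculum, CA3, choroid plexus and interferon response differed between groups by between -0.16 and 0.13 on the log2 scale with all 8 libraries. Without hp708 replicate 1 they ran from -0.23 for cortical layers to 0.22 for oligodendrocytes. Of the 6 cortical layer markers 4 had negative estimates, and 2 an unadjusted p below 0.05 both with and without surrogate variables. In RNA from whole tissue, fewer cells of a type and less RNA per cell cannot be told apart.

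In hp708, levels of the glutamate receptor genes in the fit with 3 surrogate variables were within 1.2-fold of those in hpCTL for each of the 33 genes except Grm8. Without surrogate variables Grm8 and Grik1 passed 1.2-fold. With 3 surrogate variables but without hp708 replicate 1 it was 7 genes, Grm8, Grin3a, Shisa9, Grik1, Grik3 and Gria4 downwards and Grin2a upwards. None was called at a false discovery rate (FDR) below 0.05 by the quasi-likelihood test of edgeR, fitted with 3 surrogate variables and with Benjamini-Hochberg adjustment (0 of 33, against 0.0058% of all tested genes), and the lowest FDR was 0.382, for Grin2b. An unadjusted p below 0.05 was reached by 3 of the 33 genes against 7.7% of all tested genes, with Grin2b and Cacng8 higher (2.82% of all tested genes) and Grm8 lower (4.87%) in hp708. Of the 33 genes, 21 had a positive and 12 a negative log2 fold change, where 46.8% of all tested genes were positive, with a median of 0.04 against -0.01 over all tested genes. The number of positive estimates was 16 with at least 10 counts in every library and 14 to 22 with 1 library left out. DESeq2 with the same 3 surrogate variables called Grin2b alone (FDR 0.0229, against 0.556% of all tested genes), and edgeR's likelihood ratio test with them called none of the 33 (0.736% of all tested genes). Without surrogate variables an unadjusted p below 0.05 was reached by Grm3 alone, against 1.81% of all tested genes, and with surrogate variables estimated from log2 CPM by 11 of the 33 against 13.1%.

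The standard error of the log2 fold change had a median of 0.07 over the 33 genes, and for 31 of them the 95% confidence interval lay within 1.5-fold in either direction. Without surrogate variables the median SE was 0.11 and the interval lay within 1.5-fold for 25 genes. In the fit with them the exceptions were Grm8, with an interval from 0.607-fold to 0.912-fold, and Gsg1l, with an interval from 0.724-fold to 1.53-fold.

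**Figure D1:**
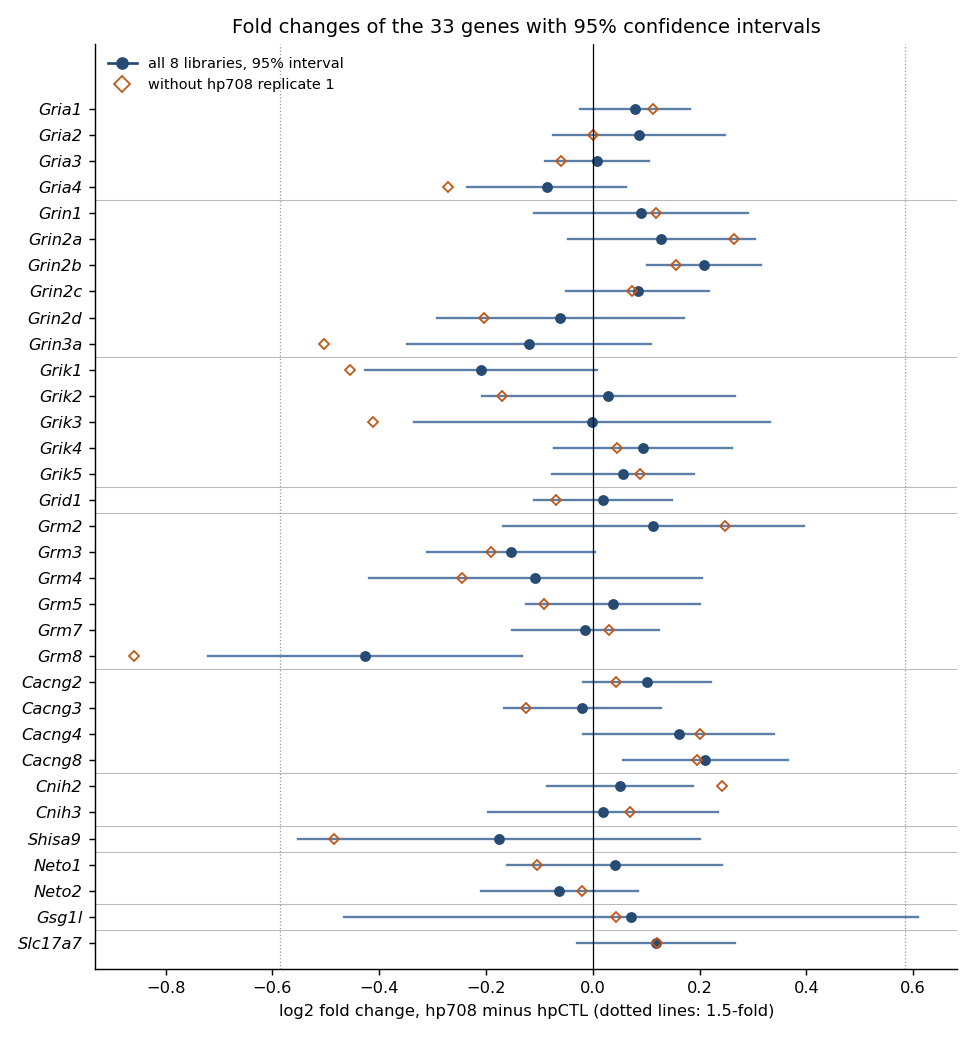
Log2 fold change of each of the 33 genes between hp708 and hpCTL in edgeR's quasi-likelihood fit with 3 surrogate variables (filled points, bars: 95% confidence interval over 8 libraries), and the value without hp708 replicate 1 (open diamonds). Grey lines separate the families and dotted lines mark 1.5-fold. The intervals of Grin2b and Cacng8 lie above 0 and that of Grm8 below 0, and Grm8, Grin3a, Shisa9, Grik1 and Grik3 move furthest down when the library is left out.

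Levels were compared between genes per kilobase of the canonical transcript. In hpCTL, Slc17a7 was the highest at 418 ± 16.5 CPM per kb (SD, n = 4), followed by Cnih2 at 229 ± 53.1, Gria1 at 174 ± 10.6, Grin1 at 111 ± 6.53 and Gria2 at 68.1 ± 5.34 CPM per kb. The SDs of Cnih2 and Gria1 overlap. The lowest were Grik1 at 3.498 ± 0.225, Grm4 at 2.52 ± 0.347, Grin2d at 2.24 ± 0.0945 and Grm8 at 1.62 ± 0.336 CPM per kb, and among these Grm4 and Grin2d did not differ beyond their spread. Grm8, with 77 counts in its lowest library, had the fewest reads of the 33 genes.

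**Figure D2:**
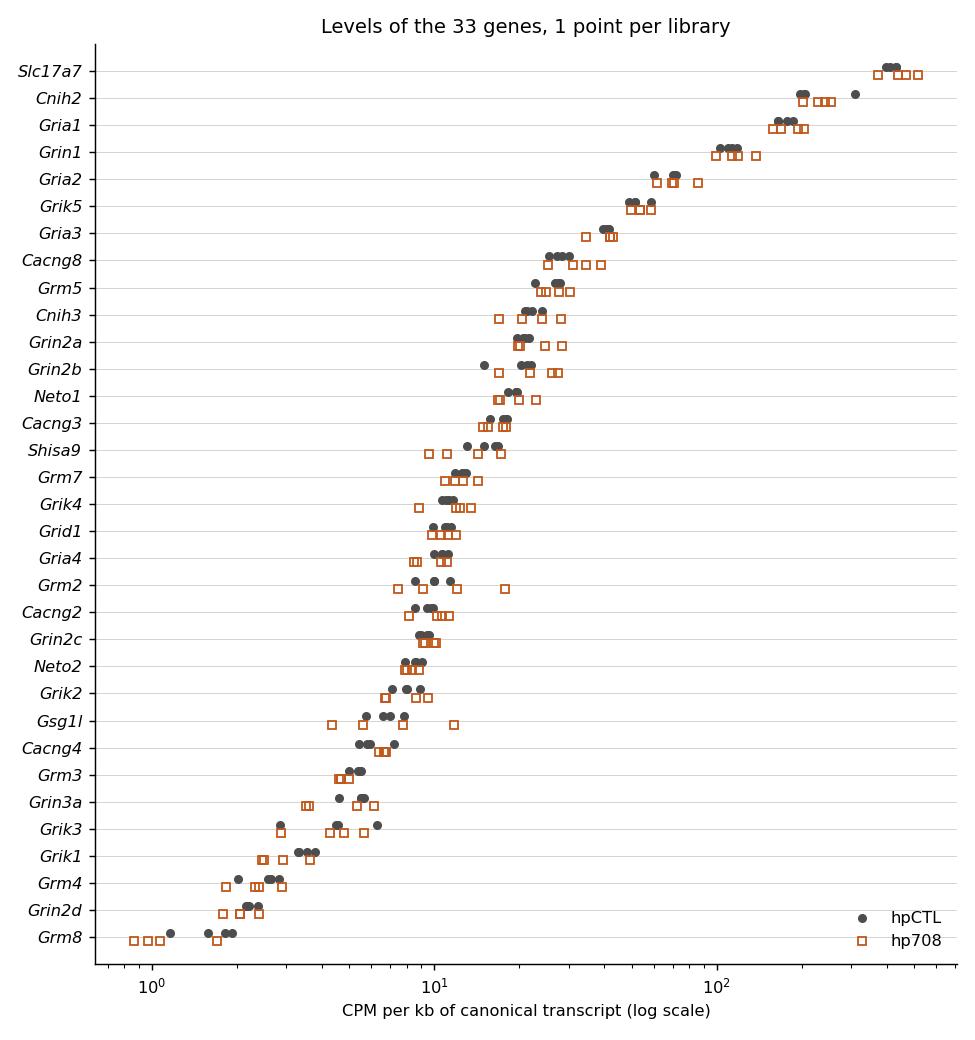
Level of each of the 33 genes in CPM per kilobase of canonical transcript on a log axis, with 1 point per library, filled for hpCTL and open for hp708 (n = 4 each). Slc17a7, Cnih2, Gria1 and Grin1 lie at the top and Grm8 at the bottom. Library points of the groups overlap for all genes except Grm3.

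Among the AMPA receptor subunits, which form the tetrameric channels of fast transmission, none of the 4 reached an unadjusted p below 0.05. Gria1, whose subunit GluA1 is the main carrier of activity-dependent delivery to the synapse, stood at 1102, 972, 1049 and 976 CPM in hpCTL replicates 1 to 4 and at 998, 936, 1204 and 1147 CPM in hp708 replicates 1 to 4. The groups overlapped, with hp708 replicates 3 and 4 above and replicate 2 below all controls, and the log2 fold change was 0.08 (SE 0.04). Gria2 encodes GluA2, the subunit that makes edited AMPA receptors nearly impermeable to calcium. It measured 647, 759.8, 771 and 753 CPM in hpCTL and 751, 663, 923 and 758 CPM in hp708, a log2 fold change of 0.09 (SE 0.07), and its 3'UTR holds an 8mer. The single high value came from hp708 replicate 3 and the lowest from hpCTL replicate 1. Gria3 had a log2 fold change of 0.01 (SE 0.04), and Gria4, most prominent in interneurons, had a log2 fold change of -0.09 (SE 0.06) with 56.7 to 63.5 CPM in hpCTL and 48.1 to 62.5 CPM in hp708.

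Per length, Gria1 supplied between 57.2% and 63.0% of the AMPA receptor subunit transcripts in the 8 libraries and Gria2 between 20.3% and 24.9%. Gria3 made up 12.6% to 14.4% and Gria4 2.76% to 3.90%. These shares depend on the length used, and with the merged exons of each gene in place of the canonical transcript Gria1 made up 70.6% to 75.3%, Gria2 13.2% to 16.6%, Gria3 9.29% to 10.8% and Gria4 1.45% to 2.10%. The mean share of Gria1 was 59.2% ± 2.63 in hpCTL and 59.8% ± 1.54 in hp708 (SD, n = 4), and that of Gria2 was 23.2% ± 2.00 and 23.6% ± 1.09. Differences between the groups were smaller than the SD within either group for both subunits. The mean share of Gria3 was 13.9% ± 0.50 in hpCTL and 13.3% ± 0.75 in hp708, and that of Gria4 3.64% ± 0.22 and 3.22% ± 0.43. For Gria3 and Gria4 the difference exceeded the SD of hpCTL but not that of hp708.

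The NMDA receptor genes included the lowest p-value of the set. Grin2b encodes GluN2B, the subunit that predominates early in development and gives slow currents, and lies on GRCm39 at chr6:135690231-136150548 on the minus strand. Its level was 363, 490.5, 534 and 516 CPM in hpCTL and 530.4, 412, 633 and 665 CPM in hp708. Replicates 3 and 4 of hp708 were above every control, replicate 1 lay within them, and hpCTL replicate 1 was lowest.

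The fitted log2 fold change of Grin2b was 0.21 (SE 0.05, 95% confidence interval 0.10 to 0.31) with an unadjusted p of 0.00238 and an FDR of 0.382 in edgeR's quasi-likelihood test. Without surrogate variables the difference was of the same size, 0.24, but its SE was 0.16 and its unadjusted p in the same test 0.184. An exact two-sided permutation test on the 8 library values gave p = 0.314. The gene carries 5 seed matches in a 3'UTR of 18865 bases, the longest of the set, and its estimate was positive.

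Grin2a encodes GluN2A, the subunit of mature synapses, and has 3 seed matches. It measured 322, 293, 312 and 306 CPM in hpCTL and 294, 299, 367 and 422 CPM in hp708, with the latter 2 libraries above all controls, and a log2 fold change of 0.13 (SE 0.07). Per length, the log2 ratio of Grin2a to Grin2b in hpCTL replicates 1 to 4 was 0.53, -0.04, -0.07 and -0.05, and for hp708 it ran -0.15, 0.24, -0.08 and 0.05. The outlying ratio was that of hpCTL replicate 1, and the group means, 0.10 ± 0.29 and 0.02 ± 0.17 (SD, n = 4), differed by less than their spread.

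Grin1 encodes the obligatory subunit GluN1. Its level was 512, 490.4, 445 and 474 CPM in hpCTL and 490.5, 429, 513 and 597 CPM in hp708, overlapping groups with a log2 fold change of 0.09 (SE 0.09). Antisense gene Grin1os shares 11.8% of its exon bases, and reads of the pair cannot be separated where the counting ignores strand. Grin2c, more typical of glia and cerebellum, had a log2 fold change of 0.08 (SE 0.06), and Grin2d, found mainly in interneurons in the adult, one of -0.06 (SE 0.10). Grin3a, whose subunit lowers calcium entry, spread widely in hp708, at 47.1, 27.0, 41.2 and 27.9 CPM against 35.6, 43.5, 42.5 and 42.6 CPM in hpCTL, with a log2 fold change of -0.12 (SE 0.10).

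Of the kainate receptor subunits none reached an unadjusted p below 0.05. Grik1 encodes GluK1, which in the hippocampus is found mostly in interneurons, and measured 11.9, 12.7, 11.8 and 13.5 CPM in hpCTL and 13.0, 8.96, 10.4 and 8.80 CPM in hp708. Replicates 2 to 4 of hp708 were below all controls and replicate 1 was among them. The log2 fold change was -0.21 (SE 0.09), with an unadjusted p of 0.0568 and an FDR of 0.667 in edgeR's quasi-likelihood test. Of the 9 interneuron markers, 4 had a positive and 5 a negative estimate. An unadjusted p below 0.05 in the same test was reached by 2 of them (7.7% of all tested genes), and by 1 without surrogate variables (1.81%). Their mean log2 CPM was 5.86 to 6.17 in hpCTL and 5.83 to 5.92 in hp708. The part of these markers in the values of Grik1, Gria4 and Grin2d was not tested.

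Grik2, the principal kainate receptor subunit of CA3 synapses, differed by 0.03 (SE 0.10) on the log2 scale. Grik3 was the most variable control gene of the family, at 26.3 to 58.1 CPM in hpCTL and 26.7 to 52.2 CPM in hp708, with a log2 fold change of -0.00 (SE 0.14). Grik4 and Grik5 encode the high-affinity subunits that need the others to form a channel and gave 0.09 (SE 0.07) and 0.06 (SE 0.06). Per length, Grik5 made up 63.9% to 70.5% of the kainate receptor transcripts and Grik1 2.88% to 4.98%. The delta receptor Grid1, which binds cerebellins across the synaptic cleft, differed by 0.02 (SE 0.06).

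Of the 6 metabotropic receptor genes, 4 had negative estimates. Grm3 couples to inhibitory G proteins, is expressed by astrocytes as well as neurons, and lies on GRCm39 at chr5:9534069-9776088 on the minus strand. Its level was 29.5, 28.8, 29.5 and 27.0 CPM in hpCTL and 26.9, 25.3, 25.1 and 24.7 CPM in hp708. It was the single gene of the 33 whose groups did not overlap, against 1.51% of all tested genes (0.812% in the lower direction), and the nearest libraries were hpCTL replicate 4 at 26.96 CPM and hp708 replicate 1 at 26.89 CPM.

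An exact two-sided permutation test on Grm3 gave p = 0.0286, the smallest that 4 against 4 libraries allow. Groups that do not overlap give this p by construction, so it adds nothing to their separation. The log2 fold change was -0.15 (SE 0.07), a level of 0.899-fold, with an unadjusted p of 0.0544 and an FDR of 0.661 in edgeR's quasi-likelihood test. Levels scaled by DESeq2's size factors made the groups overlap. Of the 6 markers of astrocytes, which also express Grm3, 4 had a positive and 2 a negative log2 fold change and none an unadjusted p below 0.05 in the same test. Their mean log2 CPM overlapped between the groups, at 7.22 to 7.45 in hpCTL and 7.29 to 7.65 in hp708, and their part in the Grm3 values was not tested.

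Grm8, a presynaptic receptor that also couples to inhibitory G proteins, lies on GRCm39 at chr6:27275118-28135177 on the minus strand and was the least abundant of the 33 genes per length. It measured 4.50, 7.04, 6.11 and 7.40 CPM in hpCTL and 6.60, 3.35, 4.13 and 3.76 CPM in hp708. Replicates 2 to 4 of hp708 were below every control, while replicate 1 lay within the control range. The log2 fold change of -0.43 (SE 0.12, 95% confidence interval -0.72 to -0.13) was the largest in size among the 33, with an unadjusted p of 0.0107 and an FDR of 0.511 in edgeR's quasi-likelihood test, and an exact permutation test gave p = 0.0857.

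Grm5, the main receptor of the hippocampus that releases calcium through Gq proteins, measured 195, 238, 235 and 229 CPM in hpCTL and 237, 204, 257 and 212 CPM in hp708. The libraries of the groups interleaved and the log2 fold change was 0.04 (SE 0.07). Grm2, prominent in dentate granule cells, spread from 40.8 to 54.1 CPM in hpCTL and from 35.6 to 85.3 CPM in hp708, a log2 fold change of 0.11 (SE 0.12) with the highest value in hp708 replicate 4. Grm4 gave -0.11 (SE 0.13), and Grm7, at most glutamate release sites, -0.01 (SE 0.06). Antisense transcripts share 10.2% of the exon bases of Grm7 and 6.71% of those of Grm2.

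The highest estimates among the auxiliary subunits were those of 2 TARPs, proteins that bring AMPA receptors to the synapse and slow their closing. Cacng8 encodes the TARP that is most abundant in the hippocampus and lies on GRCm39 at chr7:3439199-3464781 on the plus strand. It measured 64.0, 75.3, 71.5 and 68.5 CPM in hpCTL and 78.0, 63.6, 86.9 and 97.9 CPM in hp708, so that replicates 1, 3 and 4 were above all controls and replicate 2 below all of them.

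The log2 fold change of Cacng8 was 0.21 (SE 0.07, 95% confidence interval 0.06 to 0.36), with an unadjusted p of 0.0142 and an FDR of 0.549 in edgeR's quasi-likelihood test, and p = 0.200 in the exact permutation test. Annotated antisense gene Gm44257 shares 9.55% of its exon bases. Cacng4 was at 25.2, 20.3, 19.0 and 20.7 CPM in hpCTL and at a nearly constant 23.4, 23.7, 22.4 and 23.3 CPM in hp708. All hp708 libraries exceeded 3 of the 4 controls, and the log2 fold change was 0.16 (SE 0.08, FDR 0.686 in edgeR's quasi-likelihood test). Cacng2, or stargazin, gave 0.10 (SE 0.05) with an 8mer in its 3'UTR, and Cacng3 gave -0.02 (SE 0.06). Per length Cacng8 supplied 43.3% to 53.7% of the transcripts of these 4 TARPs.

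The cornichons slow AMPA receptor closing and help their export from the endoplasmic reticulum. Cnih2 measured 495, 326, 329.9 and 318 CPM in hpCTL and 325, 409, 367 and 390.3 CPM in hp708. The highest value was in a control library, hpCTL replicate 1, whereas hp708 replicates 2 to 4 were above the other 3 controls. The log2 fold change was 0.05 (SE 0.06), and that of Cnih3 was 0.02 (SE 0.09).

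Shisa9, which speeds desensitisation of AMPA receptors and is best known from the dentate gyrus, measured 44.7, 57.4, 56.1 and 51.4 CPM in hpCTL and 48.9, 37.9, 59.2 and 32.9 CPM in hp708. Its libraries of hp708 included both the highest and the lowest values, and the log2 fold change was -0.18 (SE 0.16). Gsg1l, another AMPA receptor partner, ran from 25.4 to 34.6 CPM in hpCTL and from 19.3 to 52.1 CPM in hp708, a log2 fold change of 0.07 (SE 0.23) with the largest standard error of the set. The kainate receptor partners Neto1 and Neto2 gave 0.04 (SE 0.09) and -0.06 (SE 0.06).

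Slc17a7, the vesicular transporter of most hippocampal excitatory terminals, measured 1317, 1310.2, 1248 and 1213 CPM in hpCTL and 1336, 1138, 1427 and 1575 CPM in hp708. Replicates 1, 3 and 4 of hp708 were above all controls and replicate 2 below, and the log2 fold change was 0.12 (SE 0.06, FDR 0.721 in edgeR's quasi-likelihood test).

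**Figure D3:**
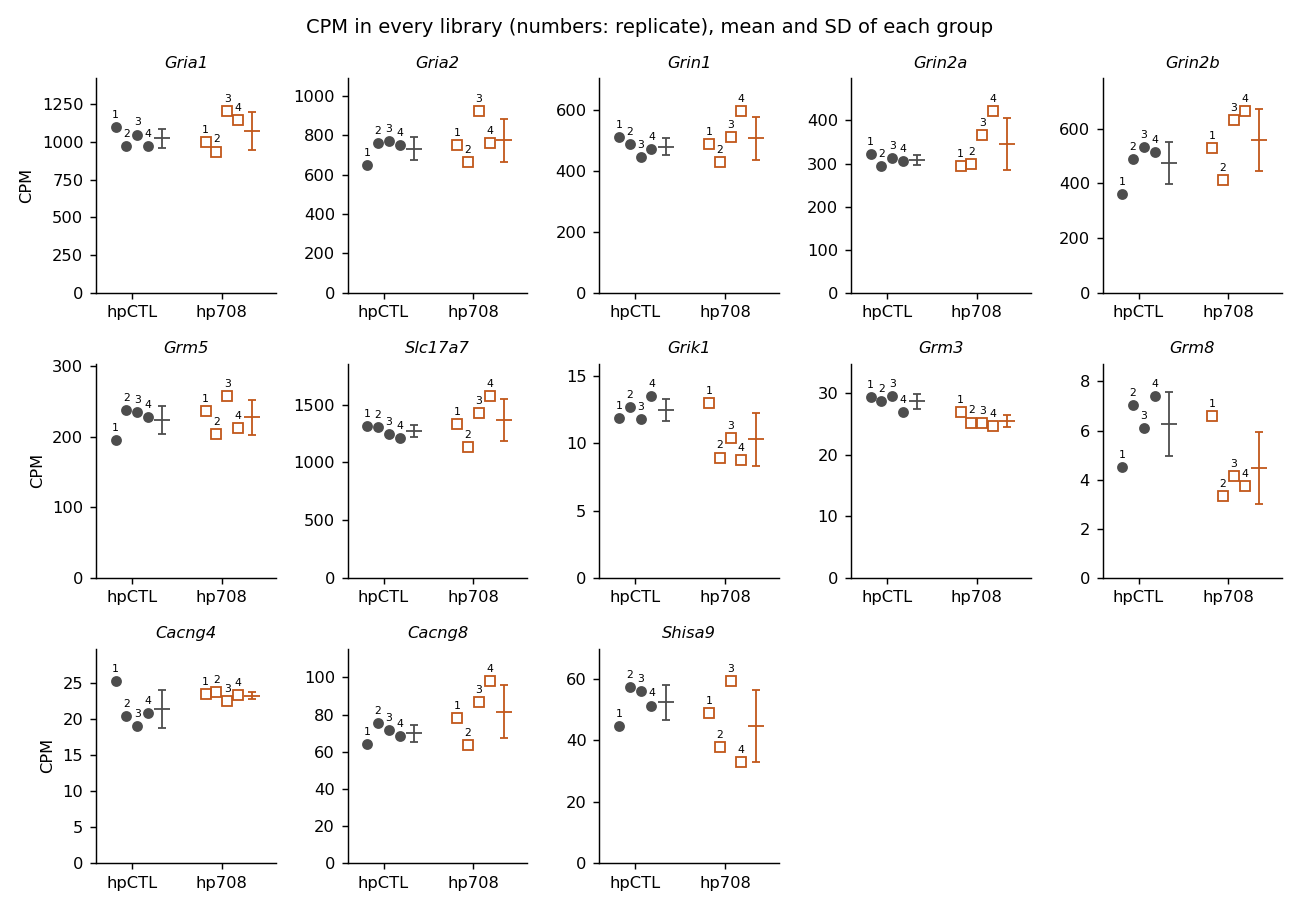
CPM of 13 genes in each of the 4 hpCTL libraries (filled) and 4 hp708 libraries (open), numbered by replicate, with the mean and SD of each group at the right. Each vertical axis starts at 0. Grm3 is the gene whose groups do not overlap, and in Grik1 and Grm8 the library hp708 1 lies with the controls.

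Many of the 33 genes had their extreme values in the same libraries. Library hp708 replicate 2 was the lowest of the 8 for 18 of the 33 genes, against 16.6% of all tested genes, and its median difference from the control mean was -0.19 on the log2 scale. Libraries hp708 replicates 4 and 3 were the highest for 12 and 8 of the 33 genes, against 15.2% and 13.2% of all tested genes. Library hp708 2 was the lowest for genes of AMPA, NMDA, kainate and metabotropic receptors and TARPs alike. It also had the highest summed level of oligodendrocyte markers, 8318 CPM against 4421 to 5984 CPM in the other 7 libraries, and the lowest sum of neuron markers, 4380 CPM against 4741 to 5220 CPM. Single neuron markers did not all follow the sum. Snap25 stood at 1986 CPM in hp708 2, above 1965 CPM in hpCTL 2, and Rbfox3 at 223 CPM, above 207 CPM in hpCTL 4. The part of these marker levels in the values of the 33 genes was not tested.

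**Figure D4:**
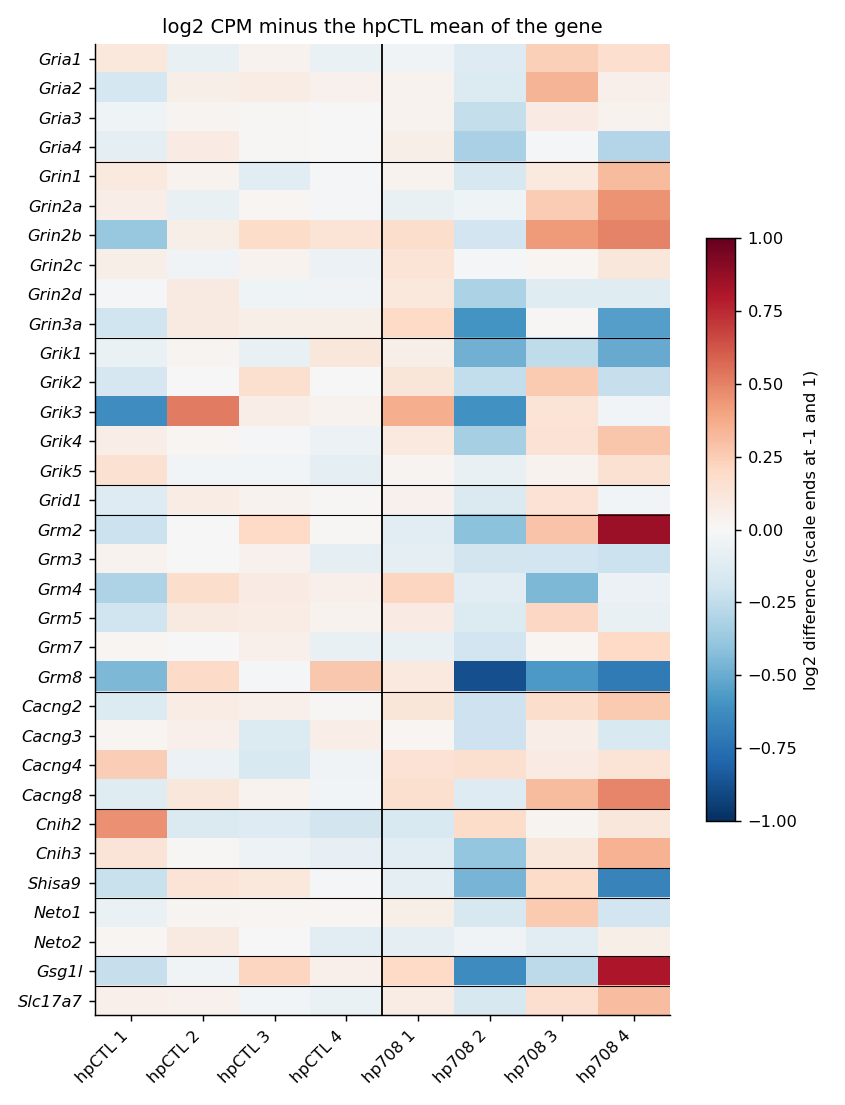
Log2 CPM of each of the 33 genes in each library minus the mean of the gene over the 4 hpCTL libraries, in blue below and red above, with families separated by lines. The column of hp708 2 is blue for most genes, that of hp708 4 is red for Grm2, Gsg1l, Grin2b and Cacng8 and blue for Grm8, Shisa9 and Grin3a, and that of hp708 1 resembles the controls.

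Leaving out hp708 replicate 1, the animal with conflicting labels, raised the count of genes with an unadjusted p below 0.05 in the fit with surrogate variables in both directions, and in the fit without them in the lower direction. Fitted so, the quasi-likelihood test with 3 surrogate variables still called 0 of the 33 genes at an FDR below 0.05, against 0.321% of all tested genes, and the lowest FDR was 0.0844, for Grin3a. An unadjusted p below 0.05 was found for 14 of the 33 genes, against 12.2% of all tested genes. In the same fit the marker lists had such a p for 6 of 6 oligodendrocyte, 5 of 8 CA3 and 5 of 8 dentate granule markers beside 7 of 8 of the subiculum. Without surrogate variables it was 0, 1, 3 and 5. The lists of cortical layers, interneurons and CA1 had it for 4 of 6, 4 of 9 and 3 of 7, and without surrogate variables for 2, 1 and 0. The part of these lists in the receptor values was not tested. Of the 14 genes, the 7 with higher levels (5.44% of all tested genes) were Grin2a, Cnih2, Grm2, Gria1, Cacng8, Cacng4 and Grin2b. The 7 with lower levels (6.72% of all tested genes) were Grin3a, Grm8, Shisa9, Gria4, Grik3, Grik1 and Grm3.

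The lowest estimates were those of Grm8, at -0.86 (SE 0.17), Grin3a, at -0.50 (SE 0.09), Shisa9, at -0.48 (SE 0.10), and Grik1, at -0.46 (SE 0.13) on the log2 scale. The estimate of Grin2a became 0.26 (SE 0.06). That fit estimates 5 coefficients from 7 libraries. Without surrogate variables and without the same library, 4 of the 33 genes had an unadjusted p below 0.05 against 3.42% of all tested genes, all lower (2.05% of all tested genes; Grm8, Grik1, Grm3 and Grin3a). In the library values themselves, 4 genes then had groups that did not overlap, against 4.92% of all tested genes, again all lower (3.12% of all tested genes; Grin2d, Grik1, Grm3 and Grm8). Grm3, Grm8 and Grik1 were in each of these counts, with an FDR of 0.346, 0.0878 and 0.202 in the quasi-likelihood test of edgeR when 3 surrogate variables were fitted and of 0.999 for each without them.

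Leaving out hp708 replicate 2, the library lowest for most of the genes, moved the counts towards higher estimates. With 3 surrogate variables 10 of the 33 genes then had an unadjusted p below 0.05 (12% of all tested genes), 8 of them higher (5.37%). Without surrogate variables it was 5 of the 33 (3.21%), all higher (1.86%), namely Cacng8, Grik4, Cacng2, Grin2b and Slc17a7. None of the 33 genes was called at an FDR below 0.05 in either fit.

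The subiculum markers had their low values in the same libraries as several of these genes. In hp708 replicates 2 to 4, where Grm8, Grik1, Grin2d and, in replicates 2 and 4, Grin3a, Gria4 and Shisa9 were lowest, the mean subiculum level was also lowest, while hp708 replicate 1 lay within the controls in the markers and within or above them in these genes. In edgeR's quasi-likelihood fit with the mean subiculum level as a covariate in place of the surrogate variables, the log2 fold change of Grm8 became 0.05 (SE 0.21), that of Grik1 0.00 (SE 0.15), that of Shisa9 0.06 (SE 0.21), that of Gria4 0.06 (SE 0.10) and that of Grin3a 0.21 (SE 0.14). The standard errors of that fit were larger than those with 3 surrogate variables for each of these 5 genes. Compared with the fit with neither covariate nor surrogate variables, 11 of the 14 genes with a negative estimate became positive and 7 of the 19 with a positive one became negative, among them Cnih2 at -0.25 (SE 0.16), Grm2 at -0.08 (SE 0.32), Grin2a at -0.06 (SE 0.13), Gria1 at -0.03 (SE 0.13) and Grin1 at -0.01 (SE 0.14). Grm3 kept its direction at -0.12 (SE 0.10), as did Grin2b at 0.26 (SE 0.25) and Cacng8 at 0.19 (SE 0.17). No gene of the 33 had an unadjusted p below 0.05 in this fit, against 2.77% of all tested genes. With the same covariate and without hp708 replicate 1, 3 of the 33 had one (Grm5, Cnih2 and Shisa9, against 9.22%), and the log2 fold change of Grm8 was 0.17 (SE 0.48), that of Grik1 -0.09 (SE 0.31) and that of Grm3 -0.24 (SE 0.21). Since the marker level itself differed between the groups, the part of the subiculum in these values and that of the group cannot be told apart.

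**Figure D5:**
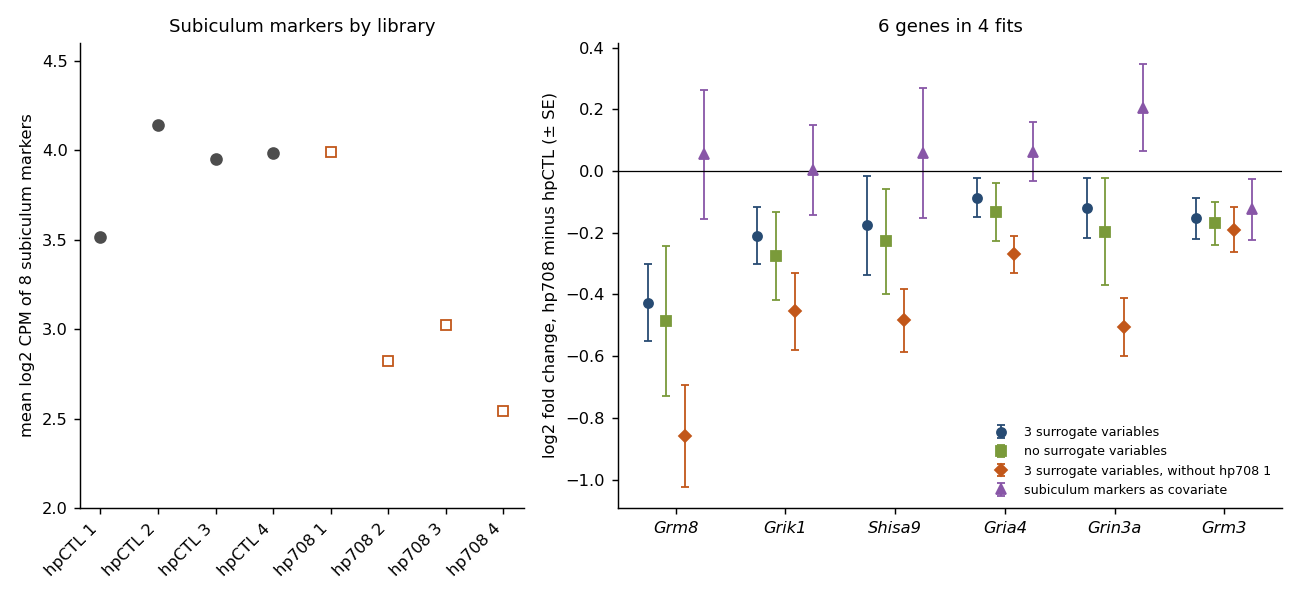
Left, mean log2 CPM of 8 subiculum markers in each library, filled for hpCTL and open for hp708. Right, log2 fold change (± SE) of 6 genes, picked after their values were seen, in edgeR's quasi-likelihood fits with 3 surrogate variables, with none, with 3 and without hp708 1, and with the subiculum level as covariate. The marker level is lowest in hp708 2, 3 and 4, and with it as covariate the values of 5 genes lie at or above 0 while Grm3 stays below.

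Log2 fold changes of genes with and without a seed match overlapped. The 12 genes with a match in the longest 3'UTR had a median log2 fold change of 0.03 with 8 positive and 4 negative values, and the 21 genes without one a median of 0.04 with 13 positive and 8 negative. Over all tested genes the medians were 0.00 with a match and -0.01 without. Without hp708 replicate 1 the medians of the 33 genes were -0.04 with a match and 0.04 without, with 7 of the 12 and 9 of the 21 negative. The genes with the lowest estimates, Grm8, Grik1, Shisa9 and Grm3, have no match in the longest 3'UTR, and of the genes whose matches are shown above, Gria2, Cacng2, Grin2a and Grin2b had positive estimates and Gria4, the one with the most paired bases, a negative one (-0.09, and -0.27 without hp708 replicate 1). In the 3'UTR of the canonical transcript, 11 of the 33 genes (33.3%) held a match against 21.2% of the tested genes, with median log2 fold changes of 0.04 with and 0.03 without one.

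Other genes of glutamate signalling were examined as lists. Of 11 receptors and auxiliary subunits outside the 33, Grm6 and Grin3b were too low to be tested, and of the other 9, 8 had positive estimates and none an FDR below 0.05 in edgeR's quasi-likelihood test (lowest FDR 0.364). An unadjusted p below 0.05 was reached by 3 of the 9, all higher, against 7.7% of all tested genes (2.82% in the higher direction), and by 2 without surrogate variables, against 1.81%. The 3 with surrogate variables were Shisa6, an AMPA receptor partner that traps receptors at the synapse, at 0.22 (SE 0.05), its relative Shisa7 at 0.16 (SE 0.07), and the TARP Cacng5 at 0.54 (SE 0.18). Shisa6 measured 160.2, 201, 206 and 201 CPM in hpCTL and 217, 204, 234 and 268 CPM in hp708, so that 3 hp708 libraries were above all controls. Without hp708 replicate 1, 2 of the 9 had an unadjusted p below 0.05, both higher, against 12.2% of all tested genes (5.44% higher), with Shisa6 at 0.25 (SE 0.05) and Cacng5 at 1.02 (SE 0.18) and a lowest FDR of 0.0776 in the same test.

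Of 19 genes for AMPA receptor assembly and synaptic partners, 14 had positive estimates, against 46.8% of all tested genes, and 4 an unadjusted p below 0.05 in the same test, against 7.7%, and none of the 19 without surrogate variables, against 1.81%. None had an FDR below 0.05 (lowest FDR 0.549). The 4 were Nptx1, a secreted pentraxin that gathers AMPA receptors, with an estimate of 0.16 (SE 0.05), Frrs1l, an assembly factor, with 0.12 (SE 0.05), Cbln4, with 0.35 (SE 0.13), and Cbln2, a cerebellin, with -0.68 (SE 0.25). Cbln2 stood at 8.18 to 12.5 CPM in hpCTL and 11.7, 4.96, 4.86 and 3.80 CPM in hp708, with hp708 replicate 1 among the controls. Without that library its log2 fold change was -1.31 (SE 0.16) with an FDR of 0.0276 in edgeR's quasi-likelihood test, the 1 gene called of the 19 (0.321% of all tested genes), and 5 had an unadjusted p below 0.05, 4 higher and 1 lower, against 12.2%.

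Of 13 genes for glutamate transport and metabolism, 7 had positive estimates and 3 an unadjusted p below 0.05, against the same 7.7% of all tested genes, and 1 without surrogate variables. Slc1a2, the main glial glutamate uptake carrier, had an estimate of 0.16 (SE 0.04). Slc17a6, the vesicular transporter of subcortical and subicular neurons and itself one of the subiculum markers, had one of -0.75 (SE 0.17), at 11.4, 18.02, 15.1 and 19.2 CPM in hpCTL and 15.8, 11.6, 6.95 and 4.83 CPM in hp708. Slc1a6 had one of -0.46 (SE 0.15). The lowest FDR of the list in edgeR's quasi-likelihood test was 0.386. Without hp708 replicate 1, Slc17a6 was at -1.25 (SE 0.13) with an FDR of 0.0262, the 1 gene called of the 13, Slc1a6 at -0.64 (SE 0.15) and Slc1a2 at 0.06 (SE 0.04).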

How the data were processed

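Hippocampal polyA RNA from 8 mice was sequenced after TruSeq mRNA library preparation. Per the submitters' processing notes, the authors mapped reads with STAR 2.7.8a to GRCm39 and counted them per gene with featureCounts 1.6.4, and they deposited raw counts without normalization, 1 column per animal. The strand and multi-mapping settings are not given in the sources used here, so overlapping antisense genes can share reads. Genes were named from GENCODE M39 of the same build (39637 of 40659). From the deposited counts, edgeR 4.0.16 (R 4.3.3) tested the genes that passed filterByExpr (quasi-likelihood as in edgeR 3, TMM, 3 surrogate variables from sva 3.50.0, Benjamini-Hochberg over all tested genes). The study's methods name the likelihood ratio test and a legend the quasi-likelihood test. Standard errors come from the log2 fold change and the F statistic. Single genes were compared by exact permutation of log2 CPM (prior count 2) over 70 splits. Fits were tested on simulated data. Libraries of a group differed beyond sampling noise (chi-square per degree of freedom 10.0 to 46.2 over genes with at least 20 counts), so none was a copy of another. Alternatives changed the surrogate variables, the test (DESeq2 1.42.0 included), the normalization, the filter, the replicate block, marker covariates and the libraries. Seed matches were searched in 3'UTRs of GENCODE M39 protein-coding transcripts.

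The 33 genes and all lists were chosen with earlier results of these data known. Values in every library are given for Gria1, Gria2, Grin1, Grin2a, Grin2b, Grm5 and Slc17a7, for genes of the 33 with an unadjusted p below 0.05 or with groups that did not overlap, and for the 3 highest and 3 lowest log2 fold changes. Other pathway genes are named at an unadjusted p below 0.05. Library values of Cnih2, Grin3a, Shisa6, Cbln2 and Slc17a6 were added after their values were seen.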

Additional observations from a re-analysis of the deposited data

Results flagged for a closer look

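In each group of 4 libraries, a library was marked when its gap to the nearest of the other 3 took up more than Dixon's 95% share of the range. Of 66 groups examined (33 genes, both groups), 5 were marked, where chance gives about 3.3. In hpCTL replicate 1, Gria2 was low at 647.3 CPM (other controls 752.9 to 771.2), Grin3a low at 35.63 CPM (42.54 to 43.51) and Neto1 low at 158.2 CPM (168.1 to 169.6), while Cnih2 was high at 494.9 CPM (317.5 to 329.9). In hp708 replicate 2, Gria3 was low at 192.0 CPM (other hp708 libraries 232.2 to 239.4). Thus 4 of the 5 concern hpCTL replicate 1, which over all tested genes was the highest library for 25.5% and the lowest for 21.1%.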

How the results depend on the processing

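The count of genes called at an FDR below 0.05, 0 of 33, became 1 (Grin2b) with DESeq2 and 3 surrogate variables and was 0 under each other alternative and with any library left out. The count at an unadjusted p below 0.05, 3 of 33 (shares of all tested genes in the same fit in brackets), was 1 with no surrogate variables in edgeR (1.81%) or DESeq2 (1.84%). It was 0 with 2 of them (4.10%), with edgeR's likelihood ratio test and none (1.56%), and with the subiculum (2.77%) or dentate granule (1.565%) list as covariate. It was 6 with no filter (5.87%) or with at least 10 counts in every library (5.72%), and 11 with surrogate variables from log2 CPM (13.1%). With 1 library left out it ranged from 1 (hpCTL replicate 3, 2.98%) to 14 (hp708 replicate 1, 12.2%), with 10 for hpCTL replicate 1 (9.67%) or hp708 replicate 2 (12.0%), 8 for hp708 replicate 3 (8.02%) and 7 for hpCTL replicate 4 (6.09%). Without surrogate variables it ranged from 0 to 5 (hp708 replicate 2, 3.21%).

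The median log2 fold change, 0.04, was -0.020 with at least 10 counts in every library and -0.014 to 0.069 with 1 library left out. The count of genes whose groups do not overlap, 1, was 0 with DESeq2 size factors and 1 to 6 with 1 library left out, with 2 for hpCTL replicate 1 (3.4% of all tested genes), 4 for hp708 replicate 1 (4.92%) and 6 for hp708 replicate 2 (6.17%).

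Replicate numbers did not pair the animals, since same-numbered libraries correlated between -0.04 and 0.02 in their deviations. With the replicate number as a block and no surrogate variables, 0 of 33 genes had an unadjusted p below 0.05 (1.58% of all tested genes) and 0 were called (1 of all tested genes).

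Of 169 log2 fold changes of 13 genes under 13 alternatives, 160 kept direction and call. Signs reversed with the subiculum covariate for Gria1 (-0.035), Grin1 (-0.011), Grin2a (-0.057), Grik1 (0.0037), Grm8 (0.054) and Shisa9 (0.059), and with at least 10 counts in every library for Gria2 (-0.020) and Grm5 (-0.082). With 1 library left out, 10 of 208 values reversed. Over all of these Gria2 ranged from -0.014 to 0.146 (-0.0068 and -0.014 without hp708 replicate 3, with and with no surrogate variables), Grin1 from -0.0070 (hp708 replicate 4, none) to 0.166 and Grm5 from -0.091 to 0.085. Grm5 with surrogate variables was -0.0549 without hpCTL replicate 1, -0.0031 without hpCTL replicate 4, and -0.091, -0.0023 and -0.0449 without hp708 replicates 1 to 3, and with none -0.0367 without hpCTL replicate 1 and -0.0397 without hp708 replicate 3. The subiculum covariate without hp708 replicate 1, added after seeing the data, gave a median of -0.0133 and reversed 7 of 13 genes, Gria1 (-0.0735), Grin1 (-0.235), Grin2a (-0.105), Slc17a7 (-0.0862), Cacng4 (-0.32), Shisa9 (0.766) and Grm8 (0.166). With merged exon lengths, added after seeing the data, the mean hpCTL share of Gria1 went from 59.2% to 72.3% and that of Gria4 to 1.94%. The causes were not tested. With 4 animals per group, a median SE of 0.07 (0.11 without surrogate variables) limits how small a difference can be resolved, and Grm8, with 77 counts in its lowest library, is the gene most limited by depth.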
